A study of Mus musculus with 36 samples.

Results

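The integrated stress response was followed through 10 of its genes, Atf4, Atf5, Ddit3, Trib3, Chac1, Ddit4, Sesn2, Asns, Psat1 and Slc7a11. They were chosen by name out of 54842 genes counted, and 10 of 10 passed the filter on low counts. RNA was measured in 36 libraries of mouse embryonic fibroblasts (MEFs), 12 groups of 3 replicates. Both lines carry a doxycycline-inducible dCas9 that a guide RNA directs to the major satellite repeats (MSR) of pericentric heterochromatin. In MSR-dCas9-Control cells the protein carries no effector, and in MSR-dCas9-Activator cells it is fused to the transcriptional activator VPR. Each line was sampled untreated (uninduced) and at the end of treatment with doxycycline at 10 ng/ml (induced). Further samples were taken 3, 6, 12 and 24 h after the treatment ended. At its end the cells were washed and given fresh medium without doxycycline. Time without doxycycline and time in fresh medium therefore cannot be told apart in either line. MSR-dCas9-Control cells were treated for 24 h and MSR-dCas9-Activator cells for 6 h, so from induction on the effector and the length of exposure cannot be told apart. Each line was made by PiggyBac transposition and drug selection, was kept as a mixed culture and not as 1 clone, and was grown with tetracycline-free serum, non-essential amino acids and pyruvate. The study's methods call the replicates biological, and the labels do not say from which cultures they came. In bulk RNA, fewer expressing cells and less RNA per cell cannot be told apart.

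In the integrated stress response, kinases that sense amino acid shortage, misfolded protein in the endoplasmic reticulum, double-stranded RNA or heme shortage phosphorylate the initiation factor eIF2. General translation then falls, while the mRNA of the transcription factor ATF4 is translated more. ATF4 and its partners act on genes for amino acid synthesis and uptake, for glutathione metabolism, for restraint of mTOR and, when stress persists, for cell death. Because ATF4 is set largely by translation, its mRNA level is no measure of its protein, which was not measured in these libraries.

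ATF4 binds with C/EBP partners to a composite element, searched here as TGATGNAA on both strands of the RefSeq promoters (250 bases before to 50 after a start, GRCm38.p6). The motif lay in 1304 of 32851 promoters, which is 3.97%. All 10 members matched a promoter, and 4 of them held the motif in these windows. The stretches around these matches are shown, 5′ to 3′ on the gene's strand, because the element is the known binding site of ATF4 with its partners. Capitals mark the match, which reads TTNCATCA where it lies on the other strand.
Asns: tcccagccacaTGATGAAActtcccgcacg
Chac1: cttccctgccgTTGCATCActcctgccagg
Slc7a11: gcTGATGCAAacctggagaatTTGCATCAt
Trib3: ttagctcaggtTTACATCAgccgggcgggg
The stretches lie at chr6:7693214-7693243 (minus strand), chr2:119351038-119351067 (plus strand), chr3:50443652-50443681 (minus strand) and chr2:152344028-152344057 (minus strand). By the RefSeq starts used for the windows, the Trib3 stretch starts 3 bases after the start and the other 3 lie before theirs. The gene coordinates given below come from GENCODE, whose starts differ. By those, the Asns stretch lies within the gene, which starts at 7693254, and most of the Trib3 stretch lies before the start at 152344032. The exact form TGATGCAA, present in 0.895% of promoters, was found for Chac1 and, on both strands, for Slc7a11. These matches are descriptions of letters, and binding was not measured.

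Gene counts per library ranged from 27376846 to 57371803, with a median of 42865961. Fibroblast markers summed to between 945830 and 1470150 normalised counts (counts scaled to 1 common library size) in the 18 MSR-dCas9-Control libraries and to between 462526 and 1261140 in the 15 MSR-dCas9-Activator libraries from induction on. In the same libraries, 6 endothelial markers summed to between 33.0 and 82.3 and between 627 and 2003, macrophage markers to between 472 and 643 and between 537 and 1080, and epithelial markers to between 22.8 and 55.7 and between 54.2 and 166. Epcam of the epithelial list and Adgre1 of the macrophage list were at 0 in all uninduced libraries. Their whole lists summed there to between 26.6 and 79.5 and between 546 and 621 normalised counts. From induction on, no marker of these 2 lists was at 0 in all 3 MSR-dCas9-Activator replicates of a time point. The part of these markers in the results was not tested. Mitochondrially encoded mRNAs made up 1.45% to 2.56% of gene counts in MSR-dCas9-Control libraries and 1.97% to 3.60% in MSR-dCas9-Activator libraries from induction on. Of the 3 MSR-dCas9-Activator replicates, replicate 2 had the lowest counts of the minor satellite repeat SYNREP_MM at every time point, with 14449 against 22129 and 21502 normalised counts after induction. The major satellite repeat GSAT_MM had another order, with 150976, 99821 and 1064410 normalised counts in replicates 1, 2 and 3 after induction, and replicate 1 was lowest at 3, 6 and 12 h (175436 against 462661 and 886904 at 3 h). MSR-dCas9-Activator replicate 2 was the highest of the 3 for 8 of the 10 members before induction, for 7 at each time point from induction to 12 h and for 2 at 24 h, and MSR-dCas9-Control replicate 2 was so for 4 to 7 members.

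In uninduced MSR-dCas9-Control cells the levels per kilobase of exon spanned a wide range. Atf4 was highest with 5488 ± 422 normalised counts per kilobase (SD, n = 3), followed by the serine synthesis enzyme Psat1 with 4052 ± 80.0, the asparagine synthetase Asns with 3219 ± 161 and Atf5 with 2627 ± 112. The pseudokinase Trib3 stood at 1556 ± 470, the glutathione-degrading enzyme Chac1 at 853 ± 182, the transcription factor Ddit3 (CHOP) at 633 ± 142, and the mTORC1 inhibitor Sesn2 at 521 ± 83.2. The replicates of Chac1 and Ddit3 overlapped, as did those of Ddit3 and Sesn2, and no other neighbours in this order did. The mTORC1 inhibitor Ddit4 (REDD1), at 123 ± 45.2, and the cystine importer Slc7a11, at 15.2 ± 2.48, were lowest.

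**Figure D1:**
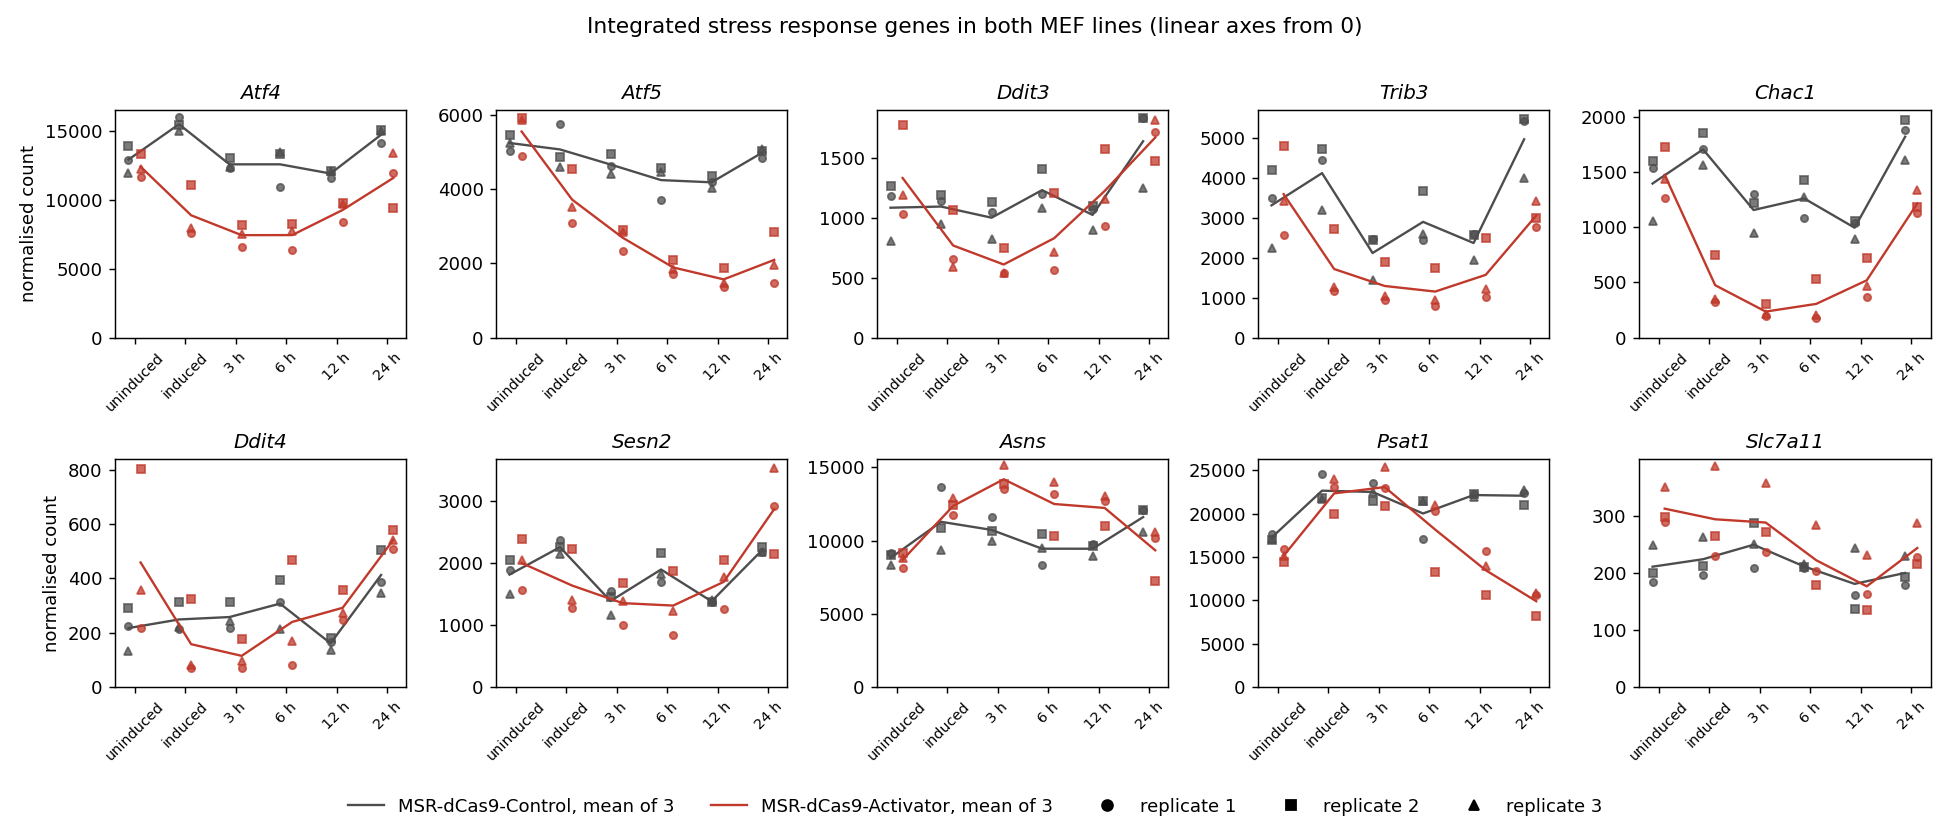
Normalised counts (y axes, linear, each from 0) of the 10 genes at the 6 time points (x axes) in MSR-dCas9-Control (grey) and MSR-dCas9-Activator (red) cells; points are the 3 replicates and lines join the means. Chac1 fell from 1474 to 235 normalised counts in the MSR-dCas9-Activator line between the uninduced cells and 3 h, while Asns was at 14187 at 3 h against 10727 in the MSR-dCas9-Control line.

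The first question was whether the lines differed before induction. For the satellite repeats they did. GSAT_MM had 2199 to 4194 normalised counts in uninduced MSR-dCas9-Activator libraries and 1413 to 1543 in uninduced MSR-dCas9-Control libraries. SYNREP_MM had 388 to 680 and 59.8 to 72.2. The changes since the uninduced state given below thus start from unequal satellite levels. In uninduced cells, 1 of 10 members was higher in the MSR-dCas9-Activator line (edgeR's quasi-likelihood test, Benjamini-Hochberg adjusted p under 0.05) and 0 were lower, where 0.883% and 0.343% of all 28536 genes tested passed in these directions. By unadjusted p under 0.05, 2 members differed, and DESeq2 also gave 1. Slc7a11 held 290, 299 and 350 normalised counts in the MSR-dCas9-Activator replicates and 184, 199 and 250 in the MSR-dCas9-Control replicates. The groups did not overlap, as for 16.5% of all genes tested. The log2 fold change was 0.58 ± 0.14 (SE, adjusted p = 0.0385 from edgeR). Leaving out any 1 of the 6 uninduced libraries ended this call, with adjusted p between 0.0598 and 0.160 and log2 fold changes between 0.55 and 0.65, and so did a fit without the replicate block (adjusted p = 0.450). Ddit4 held 215, 803 and 358 normalised counts against 225, 291 and 133, a log2 fold change of 0.96 ± 0.35 (SE) that did not pass (edgeR adjusted p = 0.246).

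After induction, 7 of the 10 members, Atf4, Atf5, Ddit3, Trib3, Chac1, Ddit4 and Sesn2, were lower in MSR-dCas9-Activator than in induced MSR-dCas9-Control cells, and Slc7a11 was higher. Of these calls, those of Atf4, Chac1 and Trib3 held in the settings and left-out libraries tried, the limit on fold size and mean aside. Of all genes tested, 25.5% were lower and 31.7% higher by the same test. At 3 h, 6 members were lower (31.4% of all genes) and 1, Asns, was higher (39.6%). At 6 h the counts were again 6 lower (33.3%) and 1 higher (40.8%), and at 12 h they were 5 lower (34.1%) and 2 higher (41.1%). At 24 h, 6 members were lower (29.4%) and 0 higher (34.5%). The median log2 fold change of the 10 members was -0.52 after induction and then, at 3, 6, 12 and 24 h, -0.74, -0.58, -0.20 and -0.33. Over all genes these medians were 0.10, 0.16, 0.13, 0.12 and 0.01. Scaling to the 13 mitochondrially encoded mRNAs moved the median of all genes to -0.25, -0.44, -0.58, -0.49 and -0.18 and the members to 8 lower after induction, 9 at 3 h, 10 at 6 h and 6 each at 12 and 24 h, with 0 higher. With that scaling 10048, 13592, 14797, 13851 and 8797 of all 28536 genes were lower at these time points, and 5835, 6707, 6840, 8017 and 8115 higher. DESeq2's size factors split the members into 4 higher and 3 lower at 12 h, with 2 in each direction at 24 h. Of all genes they gave 13369 higher and 7992 lower at 12 h, and 11007 and 6451 at 24 h.

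**Figure D2:**
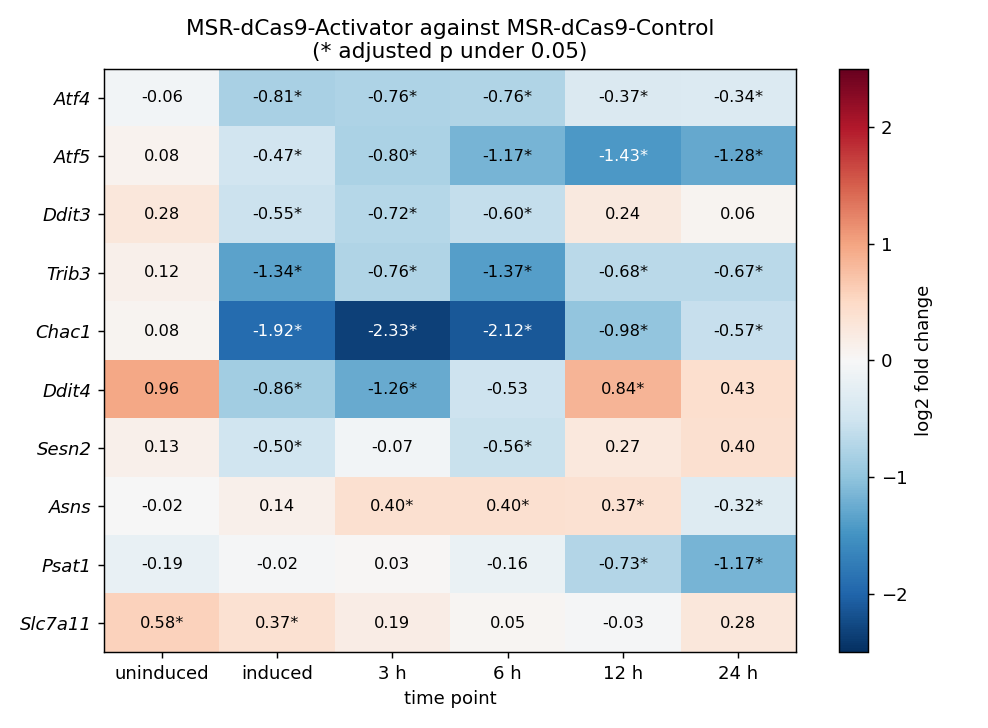
Log2 fold change of each member (rows) in MSR-dCas9-Activator relative to MSR-dCas9-Control cells at the 6 time points (columns), in red where higher and in blue where lower, with an asterisk where the edgeR adjusted p was under 0.05. Chac1 has the lowest value, -2.33 at 3 h, and Atf5 goes from -0.47 after induction to -1.43 at 12 h.

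Of the transcription factors, Atf4 (ENSMUSG00000042406, chromosome 15, 80255184 to 80257541, plus strand, GRCm38) had 12885, 13962 and 11972 normalised counts in uninduced MSR-dCas9-Control cells and 11663, 13349 and 12259 in uninduced MSR-dCas9-Activator cells. After induction the MSR-dCas9-Control replicates had 16069, 15465 and 14993 and the MSR-dCas9-Activator replicates 7595, 11118 and 7956. Every MSR-dCas9-Activator replicate lay below every MSR-dCas9-Control replicate here and at each later time point. For 57.9% of all genes tested the groups did not overlap after induction, and for 71.4%, 69.0%, 73.5% and 61.6% at 3, 6, 12 and 24 h. Groups without overlap, here and for the members below, were thus common among all genes. The log2 fold change of Atf4 was -0.81 ± 0.11 (SE, edgeR adjusted p = 6.11e-07) after induction, -0.76 at both 3 and 6 h, -0.37 at 12 h and -0.34 ± 0.11 at 24 h (edgeR adjusted p = 0.00965). The 24 h call rested on MSR-dCas9-Activator replicate 2, which had 9397 normalised counts against 11952 and 13451. Without it the 24 h value was -0.18 (edgeR adjusted p = 0.119), and with DESeq2's size factors it was also -0.18 (adjusted p = 0.185). Without MSR-dCas9-Activator replicate 1 it was -0.30 (edgeR adjusted p = 0.0543). The 12 h call was lost without MSR-dCas9-Activator replicate 1 (-0.23, edgeR adjusted p = 0.112) or 3 (-0.29, adjusted p = 0.0548), without MSR-dCas9-Control replicate 3 (-0.27, adjusted p = 0.0712), and with DESeq2's size factors (-0.15, adjusted p = 0.238).

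Atf5 (ENSMUSG00000038539, chromosome 7, 44812256 to 44816658, minus strand), a related factor that shares ATF4's translational control, had its lowest value against the MSR-dCas9-Control line at 12 h. In MSR-dCas9-Activator cells it had 4879, 5899 and 5852 normalised counts when uninduced and 1350, 1868 and 1478 at 12 h. The MSR-dCas9-Control replicates had 4181, 4334 and 4016 at 12 h, all above the MSR-dCas9-Activator replicates. The log2 fold change between the lines was -0.47 ± 0.13 (SE, edgeR adjusted p = 0.00196) after induction. It was -0.80 and -1.17 at 3 and 6 h, -1.43 ± 0.13 at 12 h (edgeR adjusted p = 6.54e-11) and -1.28 ± 0.13 at 24 h (edgeR adjusted p = 1.50e-09). From 3 h on these calls held in the settings and left-out libraries tried, the limit on fold size and mean aside, with values at 12 h between -2.03 and -1.22. The call after induction was lost without MSR-dCas9-Control replicate 1 (-0.29, edgeR adjusted p = 0.0587). Atf5 overlaps Il4i1 and Nup62, which lie on the opposite strand.

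Ddit3 (ENSMUSG00000025408, chromosome 10, 127290774 to 127296288, plus strand) encodes CHOP, a factor tied to cell death under lasting stress. At 3 h its MSR-dCas9-Activator replicates had 540, 747 and 542 normalised counts and its MSR-dCas9-Control replicates 1046, 1134 and 821. These groups did not overlap, and the log2 fold change was -0.72 ± 0.18 (SE, edgeR adjusted p = 8.79e-04). At 12 h the groups overlapped, with 933, 1578 and 1161 against 1076, 1101 and 894, and the log2 fold changes of 0.24 at 12 h and 0.06 at 24 h did not pass the test. The call after induction (-0.55) was lost without MSR-dCas9-Control replicate 1 (adjusted p = 0.0570) or MSR-dCas9-Activator replicate 1 (adjusted p = 0.0592) or 3 (adjusted p = 0.0733) in edgeR, and without the replicate block (adjusted p = 0.0928). The call at 6 h (-0.60) was lost without MSR-dCas9-Activator replicate 1 (-0.35, edgeR adjusted p = 0.103). A second entry of the name, ENSMUSG00000116429, lies on the same strand within Ddit3 and held 8.97% to 15.4% of the counts of the first, so reads may be split between them. Its log2 fold change was -0.73 at 3 h and 0.65 at 12 h (edgeR adjusted p = 0.0126). Ddit3 also overlaps Mars and Gm4189 on the opposite strand.

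Chac1 (ENSMUSG00000027313, chromosome 2, 119351229 to 119354381, plus strand), whose promoter stretch is printed above, had the lowest log2 fold change of the 10 members after induction, at 3 h and at 6 h. At 3 h its MSR-dCas9-Activator replicates had 193, 304 and 209 normalised counts and its MSR-dCas9-Control replicates 1302, 1221 and 944. The groups were far apart, with a log2 fold change of -2.33 ± 0.24 (SE, edgeR adjusted p = 5.50e-09), and values between -2.94 and -2.09 over the settings and left-out libraries. After induction it was -1.92 ± 0.24 and at 6 h -2.12 ± 0.24. At 24 h the MSR-dCas9-Activator replicates were back at 1128, 1182 and 1332 against 1881, 1973 and 1605. They remained below the MSR-dCas9-Control replicates, with a log2 fold change of -0.57 ± 0.23 (SE, edgeR adjusted p = 0.0300). That 24 h call was lost without MSR-dCas9-Control replicate 1 (adjusted p = 0.117) or 3 (0.0557) or MSR-dCas9-Activator replicate 1 (0.155) or 2 (0.149) in edgeR, without the replicate block (0.0989) and with DESeq2's size factors (0.103).

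Trib3 (ENSMUSG00000032715, chromosome 2, 152337422 to 152344032, minus strand), a pseudokinase induced by ATF4 and CHOP that restrains them in turn, was lower at each time point from induction on. At 6 h it had 788, 1727 and 935 normalised counts in MSR-dCas9-Activator cells against 2442, 3653 and 2581, without overlap. The log2 fold change was -1.34 ± 0.25 (SE, edgeR adjusted p = 6.11e-05) after induction, -1.37 ± 0.25 at 6 h (adjusted p = 2.83e-05) and -0.76 at 3 h. At 12 h it was -0.68 and at 24 h -0.67 ± 0.24 (edgeR adjusted p = 0.0190). At 12 h the groups overlapped, since MSR-dCas9-Activator replicate 2 had 2487 against 1010 and 1205 in the others and 1927 in the lowest MSR-dCas9-Control replicate. The calls at 3, 12 and 24 h were lost without MSR-dCas9-Activator replicate 1 (edgeR adjusted p = 0.0649, 0.217 and 0.132) and without the replicate block (0.0893, 0.150 and 0.103). MSR-dCas9-Control replicate 1 also carried them (0.0836, 0.0881 and 0.108 without it). At 12 h the call was lost as well without replicate 3 of the MSR-dCas9-Control (0.0621) or MSR-dCas9-Activator line (0.0949), and at 24 h without MSR-dCas9-Activator replicate 2 (0.117). With DESeq2's size factors the 12 and 24 h calls were lost too (edgeR adjusted p = 0.0828 and 0.0655), as with DESeq2 itself (adjusted p = 0.0650 and 0.0523). Each held in 6 of 16 settings and left-out samples.

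Ddit4 (ENSMUSG00000020108, chromosome 10, 59949669 to 59951834, minus strand) changed sides during the time course. At 3 h it had 70.9, 178 and 94.1 normalised counts in MSR-dCas9-Activator cells against 216, 313 and 243, a log2 fold change of -1.26 ± 0.36 (SE, edgeR adjusted p = 0.00361). At 12 h it had 245, 359 and 271 against 164, 181 and 137, and was higher by 0.84 ± 0.36 (SE, edgeR adjusted p = 0.0363). The groups did not overlap at either time point. In uninduced cells the log2 fold change had been 0.96 ± 0.35, without passing. From there to 12 h the change of Ddit4 differed between the lines by -0.12, which did not pass (edgeR adjusted p = 0.916). The 12 h call was lost without MSR-dCas9-Control replicate 2 (0.62, edgeR adjusted p = 0.168) or MSR-dCas9-Activator replicate 1 (0.90, 0.0522) or 3 (0.84, 0.0623), without the replicate block (0.86, 0.149) and with scaling to mitochondrially encoded mRNAs (0.18, 0.685). Without the replicate block the 3 h call was lost too (edgeR adjusted p = 0.0597). After induction the call (-0.86, edgeR adjusted p = 0.0429) was lost without MSR-dCas9-Control replicate 1 (0.108) or 3 (0.103) or MSR-dCas9-Activator replicate 1 (0.202) or 3 (0.184) and without the replicate block (0.298). There, MSR-dCas9-Activator replicate 2 had 323 normalised counts against 69.8 and 79.5 and lay above all MSR-dCas9-Control replicates.

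Sesn2 (ENSMUSG00000028893, chromosome 4, 132492032 to 132510501, minus strand) encodes an mTORC1 inhibitor that responds to leucine shortage and oxidative stress, and passed at 2 of the 6 time points. At 6 h its replicates had 843, 1868 and 1225 normalised counts in MSR-dCas9-Activator cells and 1699, 2158 and 1826 in MSR-dCas9-Control cells, and the groups overlapped. Its log2 fold change was -0.50 ± 0.21 after induction (SE, edgeR adjusted p = 0.0423) and -0.56 ± 0.21 at 6 h (adjusted p = 0.0190). The first call was lost without MSR-dCas9-Control replicate 1 (0.190) or 3 (0.0812) or MSR-dCas9-Activator replicate 1 (0.170) or 3 (0.167) in edgeR and without the replicate block (0.101). The second was lost without MSR-dCas9-Control replicate 3 (0.0666) or MSR-dCas9-Activator replicate 1 (0.236) or 3 (0.0839), and with DESeq2's size factors (-0.39, 0.0959). Sesn2 overlaps Gm12981 on the same strand, so reads may be shared.

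**Figure D3:**
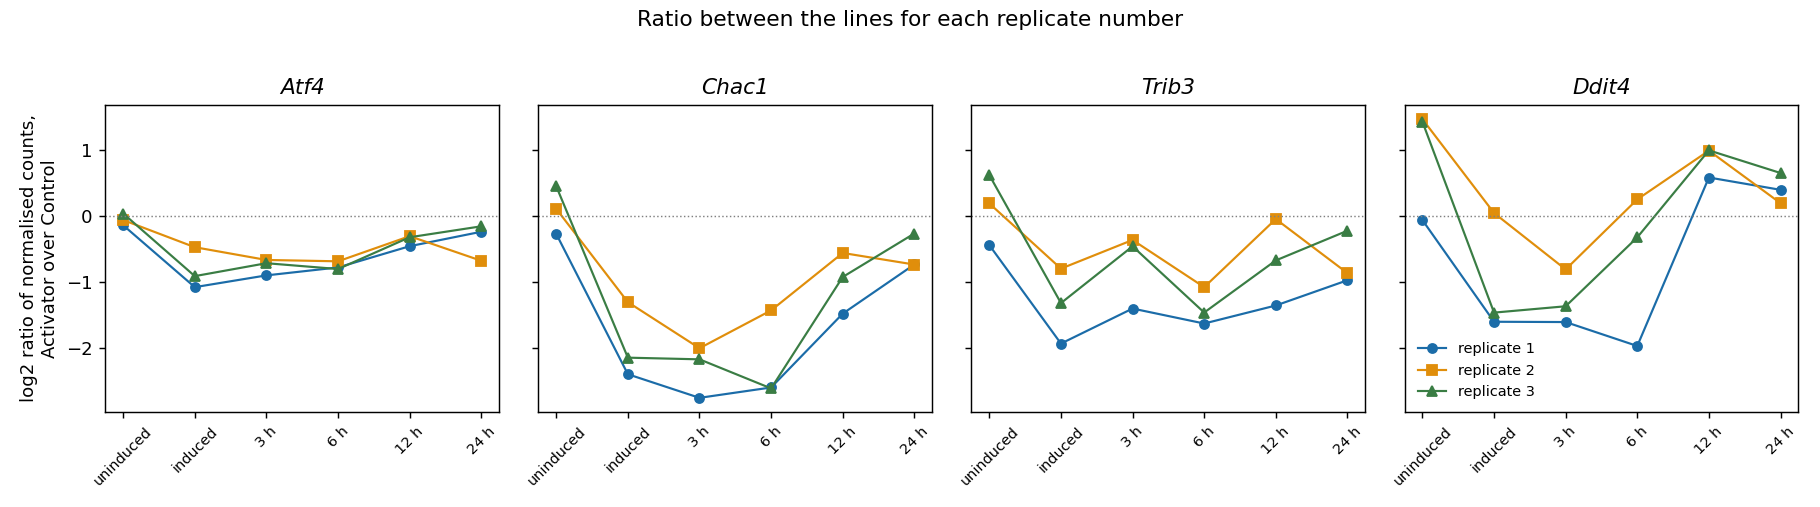
Log2 ratio of normalised counts, MSR-dCas9-Activator over MSR-dCas9-Control (y axis), for libraries with the same replicate number at the 6 time points (x axis) for Atf4, Chac1, Trib3 and Ddit4. After induction the line of replicate 2 lies above the other two for each of the 4 genes, with a ratio of 1.03 for Ddit4 where the others had 0.329 and 0.362.

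Of the 3 members of amino acid supply, Asns (ENSMUSG00000029752, chromosome 6, 7675169 to 7693254, minus strand), which makes asparagine from aspartate, had 13550, 13851 and 15161 normalised counts in MSR-dCas9-Activator cells at 3 h and 11585, 10627 and 9967 in MSR-dCas9-Control cells. The groups did not overlap, and Asns was higher by a log2 fold change of 0.40 ± 0.13 (SE, edgeR adjusted p = 0.00586). It was also higher at 6 h (0.40, adjusted p = 0.00630) and 12 h (0.37, adjusted p = 0.00981), and lower at 24 h (-0.32, adjusted p = 0.0299). The direction depended on the scale, since scaling to mitochondrially encoded mRNAs gave -0.20, -0.32 and -0.25 at 3, 6 and 12 h. At 6 h the call was lost without MSR-dCas9-Control replicate 1 (0.29, edgeR adjusted p = 0.0680). At 24 h it was lost without any 1 of the 3 MSR-dCas9-Activator replicates (adjusted p between 0.0601 and 0.223) or MSR-dCas9-Control replicate 1 (0.0653) or 2 (0.0996), and with DESeq2's size factors (-0.16, 0.311).

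Psat1 (ENSMUSG00000024640, chromosome 19, 15904678 to 15947337, minus strand) catalyses the second step of serine synthesis and was lower than in the MSR-dCas9-Control line at 12 and 24 h. At 3 h it had 22926, 20884 and 25443 normalised counts in MSR-dCas9-Activator cells against 23591, 21484 and 22481, a log2 fold change of 0.03 that did not pass. At 24 h it had 10630, 8216 and 10849 against 22421, 21064 and 22769. The groups were then far apart, with a log2 fold change of -1.17 ± 0.12 (SE, edgeR adjusted p = 1.79e-09), after -0.73 ± 0.12 at 12 h (adjusted p = 2.26e-06). Both calls held in the settings and left-out libraries tried, the limit on fold size and mean aside, with values from -1.35 to -0.95 at 24 h. Psat1 overlaps Gm3329 on the opposite strand.

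Slc7a11 (ENSMUSG00000027737, chromosome 3, 49892526 to 50443614, minus strand), which exchanges glutamate for cystine and so feeds glutathione synthesis, was the member that was higher both before and after induction. After induction it had 230, 266 and 387 normalised counts against 197, 213 and 263, with overlap and a log2 fold change of 0.37 ± 0.14 (SE, edgeR adjusted p = 0.0283). This was lost without MSR-dCas9-Control replicate 1 (0.0723) or 3 (0.0567) or MSR-dCas9-Activator replicate 3 (0.133) in edgeR, without the replicate block (0.144) and with scaling to mitochondrially encoded mRNAs (0.01, 0.980). From 3 h on its values of 0.19, 0.05, -0.03 and 0.28 did not pass. Slc7a11 overlaps Gm37498 and Gm37692 on the same strand, so reads may be shared, and Gm2345, Gm37826 and Gm37854 on the opposite strand.

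The second question was how each line changed from its own uninduced state. In MSR-dCas9-Activator cells, induction lowered 6 of 10 members (28.0% of all genes) and raised 2 (32.9%). The falls were 1.70 ± 0.23 for Chac1, 1.62 ± 0.36 for Ddit4, 1.12 ± 0.25 for Trib3, 0.80 ± 0.18 for Ddit3, 0.59 ± 0.13 for Atf5 and 0.49 ± 0.11 for Atf4 on the log2 scale (± SE), with edgeR adjusted p of at most 5.02e-04. Asns rose by 0.51 ± 0.13 and Psat1 by 0.56 ± 0.12, but scaling to mitochondrially encoded mRNAs gave -0.07 and -0.02 and a split of 0 higher and 8 lower. With that scaling 4878 of all genes were higher and 13769 lower. In MSR-dCas9-Control cells 0 members passed in edgeR and DESeq2 (0.214% of all genes in edgeR), and 3 had an unadjusted p under 0.05. The highest log2 value there was 0.39 ± 0.12 for Psat1 (edgeR adjusted p = 0.219). For 6 members the lines differed in their change on induction, each with the lower value in the MSR-dCas9-Activator line, where 32.2% of all genes differed. The difference was -1.99 ± 0.32 for Chac1 (SE, edgeR adjusted p = 6.24e-05). Without the replicate block 2 of these 6 passed, Atf4 and Chac1. The Atf5 difference (-0.55) was lost without MSR-dCas9-Control replicate 2 before induction (edgeR adjusted p = 0.0529) or replicate 1 after it (0.112).

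Between induction and 3 h, 2 members fell further in MSR-dCas9-Activator cells (4.77% of all genes fell and 5.25% rose), Chac1 by 0.97 ± 0.24 and Atf5 by 0.46 ± 0.13 on the log2 scale (edgeR adjusted p = 0.0126 and 0.0198). Neither passed without MSR-dCas9-Activator replicate 2 after induction or replicate 1 at 3 h, where 0 members did, or without the replicate block, where 0 did as well. Without replicate 2 or 3 at 3 h 1 passed. In MSR-dCas9-Control cells 0 members passed in edgeR (0.182% of all genes), 4 had an unadjusted p under 0.05 and DESeq2 called 1. The lines differed in this change for 0 members in edgeR and DESeq2 and 0 by unadjusted p (0.522% of all genes in edgeR).

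From 3 to 24 h, 9 of 10 members changed in MSR-dCas9-Activator cells. Of these, 6 rose (30.0% of all genes), with log2 changes of 2.41 ± 0.24 for Chac1, 2.37 ± 0.37 for Ddit4, 1.50 ± 0.18 for Ddit3, 1.34 ± 0.25 for Trib3, 1.13 ± 0.21 for Sesn2 and 0.65 ± 0.11 for Atf4 (± SE, edgeR adjusted p of at most 7.34e-05). Another 3 fell (26.9%), Psat1 by 1.23 ± 0.12, Asns by 0.61 ± 0.13 and Atf5 by 0.38 ± 0.13, while Slc7a11 had a value of -0.23 that did not pass. The Atf5 change was 0.04 with scaling to mitochondrially encoded mRNAs, -0.06 with library sizes alone and -0.36 without the replicate block, none of which passed. The call was lost too without MSR-dCas9-Activator replicate 2 (adjusted p = 0.0566) or 3 (0.125) at 3 h, or replicate 1 (0.296) or 3 (0.0909) at 24 h, in edgeR. Scaling to mitochondrially encoded mRNAs gave 6 members higher and 1 lower (10720 and 2281 of all genes). MSR-dCas9-Control cells showed 2 rises over the same interval (2.31% of all genes changed), 1.24 ± 0.25 for Trib3 and 0.71 ± 0.18 for Ddit3 (edgeR adjusted p = 0.00651 and 0.0285). Of these calls 0 were left without the replicate block, without MSR-dCas9-Control replicate 2 or 3 at 3 h, or without replicate 1 at 24 h, and 1 without replicate 2 at 24 h. The change from 3 to 24 h differed between the lines for 7 members (32.3% of all genes), with higher values in the MSR-dCas9-Activator line for Chac1, Ddit4, Ddit3 and Atf4 and lower ones for Psat1, Asns and Atf5. Leaving out 1 library ended the Atf4 difference for 7 of the 12 libraries (edgeR adjusted p between 0.0560 and 0.0931) and the Atf5 difference for 9 of them (0.0762 to 0.289). The Ddit3 difference was lost without MSR-dCas9-Control replicate 1 at 3 h or 3 at 24 h (edgeR adjusted p of 0.0551 and 0.0541). The count was 3 without the replicate block and 4 without MSR-dCas9-Control replicate 3 at 24 h.

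At 24 h against the uninduced state, MSR-dCas9-Activator cells had 3 members lower (28.5% of all genes) and 1 higher (34.3%). Atf5 was lower by a log2 value of -1.43 ± 0.13, Psat1 by -0.62 ± 0.12 and Slc7a11 by -0.37 ± 0.14, and Sesn2 was higher by 0.56 ± 0.21 (SE, edgeR adjusted p = 2.32e-10, 3.91e-05, 0.0276 and 0.0214). Atf4, Ddit3, Ddit4, Asns, Trib3 and Chac1 had values between -0.25 and 0.42 that did not pass. The split was 2 higher and 2 lower with DESeq2's size factors and 0 higher and 3 lower with scaling to mitochondrially encoded mRNAs. Of all genes, 10839 were higher and 6328 lower with the former, and 7962 and 8391 with the latter. The Slc7a11 call was lost without any 1 of the 6 libraries (edgeR adjusted p between 0.0621 and 0.169), and that of Sesn2 without MSR-dCas9-Activator replicate 1 before induction (0.104) or replicate 1 (0.0516) or 3 (0.0964) at 24 h. The count was 2 without the replicate block, without MSR-dCas9-Activator replicate 1 before induction, or without replicate 1 or 3 at 24 h. In MSR-dCas9-Control cells 0 members passed in edgeR (0.788% of all genes), 5 had an unadjusted p under 0.05 and DESeq2 called 1. The change since the uninduced state differed between the lines for 6 members at 3 h (47.1% of all genes), 7 at 6 h (50.1%), 4 at 12 h (51.0%) and 2 at 24 h (33.1%). These comparisons share the uninduced libraries. Among them, Slc7a11 at 6 h was lost without any 1 of 8 of the 12 libraries (edgeR adjusted p between 0.0577 and 0.121) and at 12 h without any 1 of 3 (up to 0.131), Trib3 at 3 h without any 1 of 7 (0.0654 to 0.157) and Ddit4 at 6 h without any 1 of 4 (0.0508 to 0.0559). Psat1 at 12 h was lost without MSR-dCas9-Control replicate 3 before induction or MSR-dCas9-Activator replicate 2 at 12 h (edgeR adjusted p between 0.0511 and 0.0638), and Chac1 at 12 h without MSR-dCas9-Activator replicate 1 at 12 h (0.0547).

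Around the 10 members, 64 further genes of the pathway were listed by role, of which 63 passed the filter. After induction 22 of the 63 were lower and 9 higher, which is 34.9% and 14.3% where all genes gave 25.5% and 31.7%. At 3 h 19 were lower (30.2%, against 31.4% of all genes) and 17 higher (27.0%, against 39.6%). The shares at 6 h were 33.3% lower and 30.2% higher (33.3% and 40.8% of all genes), and those at 12 h 30.2% and 34.9% (34.1% and 41.1%). By 24 h 30 were lower and 9 higher, or 47.6% and 14.3% against 29.4% and 34.5% of all genes. Before induction 0 of the 63 passed in edgeR or DESeq2, and 7 had an unadjusted p under 0.05.

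**Figure D4:**
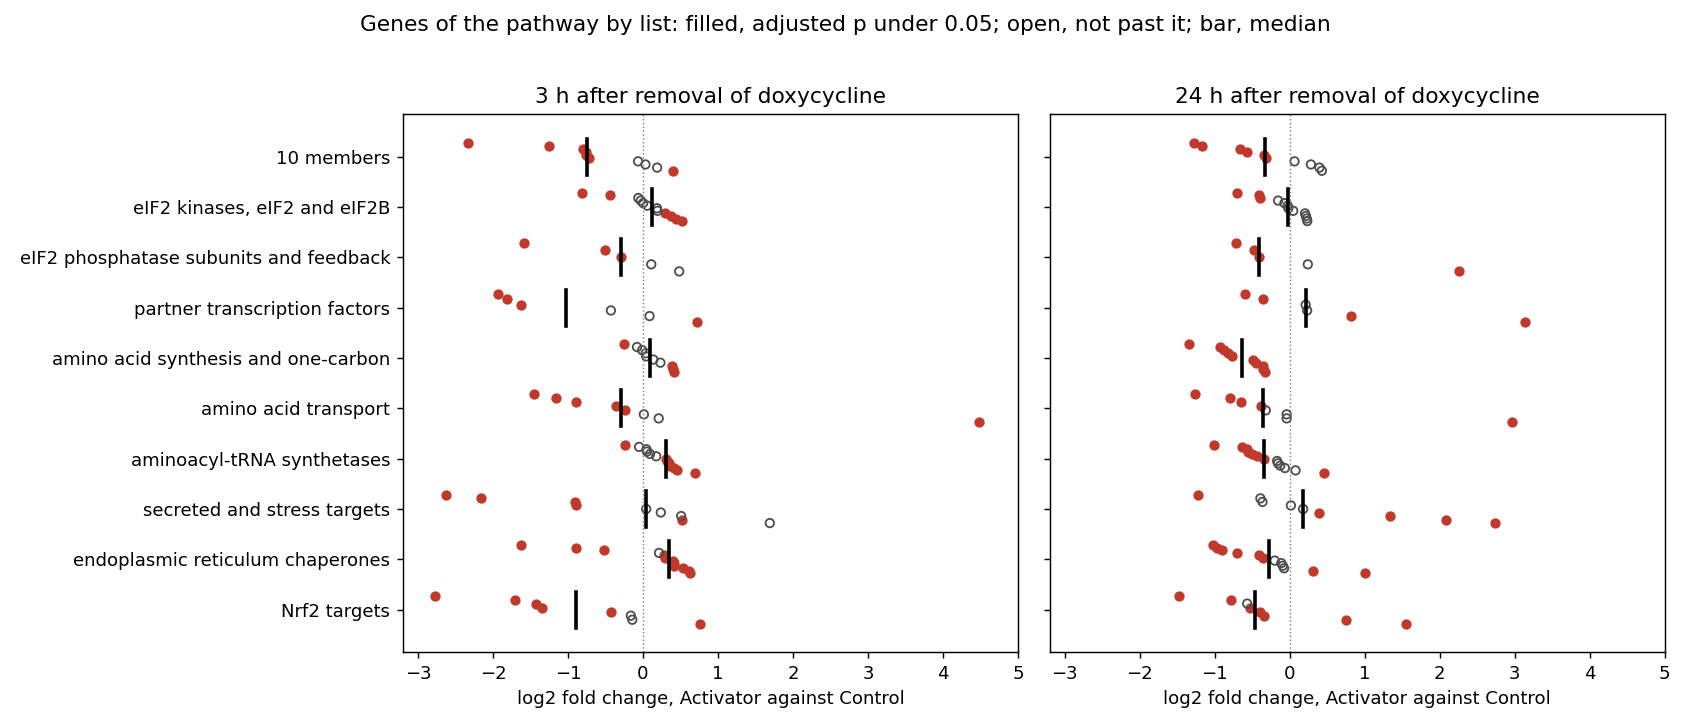
Log2 fold change in MSR-dCas9-Activator relative to MSR-dCas9-Control cells (x axes) for the genes of each list (rows) at 3 h (left) and 24 h (right); filled points passed the edgeR test, open points did not, and bars are list medians. The 10 amino acid synthesis genes are all to the left of 0 at 24 h, with a median of -0.63, and 1 amino acid transporter, Slc7a3, is far to the right at both times.

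Among the upstream genes of eIF2 phosphorylation and eIF2B, 4 of 12 were higher and 2 lower at 3 h, whereas at 24 h none was higher and 3 were lower. Of all genes, 39.6% were higher and 31.4% lower at 3 h and 34.5% and 29.4% at 24 h, so the counts of 4 higher and 3 lower lie near these shares. Eif2ak3 (PERK, the kinase of the endoplasmic reticulum) was lower from induction on, with log2 fold changes of -0.42, -0.82, -1.24, -1.07 and -0.70. Eif2b5, a subunit of the exchange factor eIF2B, was higher from induction to 12 h, with 0.37 ± 0.11 (SE, edgeR adjusted p = 0.00258) at 12 h. Of 5 genes in the phosphatase list, 3 were lower at both 3 and 24 h, and 1 was higher at 24 h. Ppp1r15b, the constitutive partner of the eIF2 phosphatase, was lower at 12 h by a log2 value of -1.33 ± 0.14 (edgeR adjusted p = 1.08e-09), whereas Ppp1r15a (GADD34), the partner that stress induces, was higher by 2.15 ± 0.24 (adjusted p = 1.71e-08) and by 2.26 at 24 h. Before that its values were -0.45 after induction and 0.48 at 3 h, which did not pass, and 0.81 at 6 h, which did.

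Of 6 partner transcription factors, 4 were lower and 0 higher after induction (25.5% and 31.7% of all genes). At 24 h 2 each were lower and higher (29.4% and 34.5% of all genes). Cebpg, which pairs with ATF4, was lower from induction on, with a log2 fold change of -1.18 ± 0.14 at 12 h (SE, edgeR adjusted p = 1.12e-08). Atf3, a stress-induced factor downstream of ATF4, was at -0.39 after induction without passing, and higher by 0.73 at 3 h, 1.60 at 6 h, 3.09 ± 0.24 at 12 h (adjusted p = 7.72e-12) and 3.14 at 24 h. Of 9 secreted and stress targets, 5 were lower and 0 higher after induction, and 6 higher and 2 lower at 12 h (41.1% and 34.1% of all genes). Vegfa, the angiogenic growth factor, was lower by -2.18 after induction and -1.21 ± 0.25 at 12 h (edgeR adjusted p = 1.06e-04). Gadd45a, a growth arrest gene, went from -0.99 after induction to 1.24 ± 0.21 at 12 h (edgeR adjusted p = 5.98e-06).

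In the metabolic lists, 10 further genes were of amino acid synthesis and one-carbon metabolism. At 3 h 3 were higher and 1 lower (39.6% and 31.4% of all genes). At 12 h 2 were higher and 4 lower (41.1% and 34.1% of all genes). At 24 h all 10 were lower (29.4% of all genes), with a median of -0.63. Psat1 was lower beside them, with its -1.17. Cth, the last enzyme of cysteine synthesis, was higher by 0.64 ± 0.16 at 12 h and lower by -0.45 at 24 h, and Bcat1, a branched-chain aminotransferase, was lower by -1.06 ± 0.11 at 12 h (SE, edgeR adjusted p = 7.90e-04 and 2.14e-09 at 12 h). Of 8 amino acid transporters 7 were lower and 1 higher after induction (25.5% and 31.7% of all genes), and 4 lower and 1 higher at 24 h (29.4% and 34.5%). The exception was Slc7a3, a cationic amino acid transporter, with 3.96 ± 0.31 at 12 h (edgeR adjusted p = 3.85e-12), while the glutamine transporter Slc1a5 was at -2.04 ± 0.14 (adjusted p = 5.23e-13). Of 13 genes of tRNA charging, the aminoacyl-tRNA synthetases and the tRNA exporter Xpot, 7 were higher and 1 lower at 3 h, and by 24 h this had turned to 1 higher against 7 lower (39.6% and 31.4% of all genes at 3 h, 34.5% and 29.4% at 24 h). At 12 h, Aars was higher by 0.93 ± 0.11 and Xpot, the exporter, lower by -0.74 ± 0.09 (edgeR adjusted p = 2.07e-08 for each).

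The neighbouring stress pathways also moved in both directions. Of 12 endoplasmic reticulum chaperones and related genes, 8 were higher and 3 lower at 3 h, against 2 and 6 at 24 h. The shares over all genes were 39.6% higher and 31.4% lower at 3 h, and 34.5% and 29.4% at 24 h. Edem1, which clears misfolded proteins, was higher by 0.82 ± 0.08 at 12 h, and Xbp1, the transcription factor of the unfolded protein response, lower by -1.25 ± 0.21 (SE, edgeR adjusted p = 4.32e-10 and 9.00e-06). Of 8 targets of NRF2, the factor of the oxidative stress response, 5 were lower at 3 h and 5 at 24 h, and 1 and 2 were higher. Hmox1, heme oxygenase, went from -1.43 at 3 h to 1.12 ± 0.17 at 12 h, and Srxn1, which repairs oxidised peroxiredoxins, was at -1.89 ± 0.12 at 12 h (edgeR adjusted p = 1.09e-06 and 1.16e-13 at 12 h).

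At 12 h the marker lists moved too, where 41.1% of all genes were higher and 34.1% lower. Of 11 fibroblast markers tested 7 were lower and 3 higher, with Twist1 at -1.83 and Dcn at 1.83. Of 6 endothelial markers 6 were higher, among them Pecam1 at 6.66 and Tek at 5.40. Of 4 macrophage markers tested 3 were higher, Csf1r by 0.91, and of 4 epithelial markers 2 were. Their part in the changes of the 10 members was not tested.

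Genes with courses like those of 2 members were looked up among 13628 genes with a mean above 100, by Pearson's r over the 12 group means. Nearest to Asns were Tars, the threonyl-tRNA synthetase, with r = 0.96, then Gm14303, Commd1, Parp2 and Gpx4-ps2 with 0.96 to 0.94. By Spearman's rho over the 36 libraries the 5 nearest were Iars, Copa, Parp2, Eif3c and Oxct1, which shares 1 gene with the first list. Nearest to Ddit3 were 1810026B05Rik with r = 0.98, then Mtmr3, Tmem181b-ps, Zfp781 and Gm44597 with 0.96 to 0.95, and by Spearman's rho Mtmr3, the second Ddit3 entry, Hbp1, Ddit4 and Ankrd12, again with 1 gene shared. The points share their libraries and scaling, so these values describe likeness of course and carry no test.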

How the data were processed

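RNA was measured in 36 libraries of total RNA, 12 groups of 3 from 2 MEF lines. The libraries were stranded and paired-end. After trimming (cutadapt) and alignment to GRCm38 (STAR), the authors used TEtranscripts to count reads over genes and over families of repeats. The deposited values are counts, not normalised. Multi-mapped reads and the strand setting are not given in the sources used here, which bears on members that overlap other genes. Of 54842 genes, 54409 had a symbol in GENCODE M21. The 1561 repeat families and 1 unnamed entry, with at most 0.00452% of counts in a library, were left out of library sizes and tests.

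The 28536 genes that filterByExpr retained went into edgeR 4.0.16 (R 4.3.3), by robust quasi-likelihood in 1 fit of the 36 libraries, with TMM factors, the 12 groups and the replicate number as block, over 21 contrasts. The replicate term follows the study, which fitted DESeq2 with terms for replicate, time point and condition. P-values were adjusted by Benjamini-Hochberg over all genes tested, and the limit was 0.05. A standard error is |log2 fold change| / √F, with F the test statistic. Normalised counts are counts divided by the TMM-scaled library size and multiplied by the mean of that size, 42252949. Libraries with the same replicate number were compared between the lines: after removing group means, 16 of 18 correlations were over 0.1, from -0.0150 to 0.466, so that not every pair reached the level that would show pairing.

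The members and gene lists were chosen with earlier results of these data known. Text names all 10 members, for each other list the genes with the highest and the lowest log2 fold change among those past the test with a mean above 100 at 12 h, and the 5 genes most like Asns and Ddit3. Alternatives were DESeq2 1.42.0, its size factors, library sizes without TMM, scaling to 13 mitochondrially encoded mRNAs, no filter, no replicate block, the study's limits, the 6 libraries of a time point alone, and each library left out. Leaving out each replicate number in all groups was added after seeing the data. The fit was tested on simulated counts of 28536 genes, where 91 of 100 genes changed 2-fold and 100 of 100 changed 4-fold were called, with 10 false calls. These changes lay in 1 group, equally up and down, with no replicate effect and all other genes unchanged. In the data 41.1% of genes were higher and 34.1% lower at 12 h, so the simulation does not show the rate of false calls there.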

Additional observations from a re-analysis of the deposited data

Results flagged for a closer look

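The change of a gene over time was compared between the lines as an interaction in the edgeR fit (quasi-likelihood test, Benjamini-Hochberg adjusted p under 0.05), and each value here is the log2 change in the MSR-dCas9-Activator line less that in the MSR-dCas9-Control line. With groups of 3, single libraries were not tested as outliers.

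From the uninduced to the induced cells the changes differed by -1.99 for Chac1, -1.82 for Ddit4, -1.46 for Trib3, -0.83 for Ddit3, -0.75 for Atf4 and -0.55 for Atf5. From the uninduced cells to 3 h they differed by -2.40 for Chac1, -2.22 for Ddit4, -1.01 for Ddit3, -0.88 for Trib3, -0.88 for Atf5 and -0.70 for Atf4. To 6 h they differed by -2.20 for Chac1, -1.49 for Trib3, -1.48 for Ddit4, -1.25 for Atf5, -0.89 for Ddit3, -0.70 for Atf4 and -0.53 for Slc7a11. To 12 h the values were -1.51 for Atf5, -1.06 for Chac1, -0.61 for Slc7a11 and -0.54 for Psat1, and to 24 h -1.36 for Atf5 and -0.98 for Psat1.

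From 3 to 24 h the changes differed by 1.76 for Chac1, 1.69 for Ddit4, 0.79 for Ddit3, 0.42 for Atf4, -0.48 for Atf5, -0.72 for Asns and -1.20 for Psat1. The comparisons from the uninduced cells share those libraries, so their values are not separate evidence, and the lines also differed in the length of doxycycline treatment.

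These differences did not hold alike. Slc7a11 at 6 h kept its call in 6 of 21 settings and left-out samples. It was lost with DESeq2 (adjusted p = 0.148), without the replicate block (edgeR adjusted p = 0.214) and without any 1 of 8 of the 12 libraries, and was -0.22 without replicate 2. Trib3 at 3 h kept its call in 8 of 21, and was lost without the replicate block (edgeR adjusted p = 0.206), with DESeq2's size factors (0.0719), without the filter (0.0843) and without any 1 of 7 libraries. Atf5 from 3 to 24 h kept its call in 6 of 21 and Atf4 in 11, and Slc7a11 at 12 h in 13. Chac1 kept its call in 21 of 21 on induction, at 3 and 6 h and from 3 to 24 h.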

How the results depend on the processing

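Of the 36 calls of a member between the lines, 16 held in every setting and with every library or replicate number left out, the limit of a 2-fold change and a mean above 100 aside. They were Atf4, Chac1 and Trib3 after induction, Atf4, Atf5, Ddit3 and Chac1 at 3 h, Atf4, Atf5, Chac1 and Trib3 at 6 h, Atf5, Chac1 and Psat1 at 12 h, and Atf5 and Psat1 at 24 h. Only scaling to mitochondrially encoded mRNAs reversed a direction, for Asns between the lines (-0.20, -0.32 and -0.25 at 3, 6 and 12 h), for Asns (-0.0690) and Psat1 (-0.0174) on induction of the MSR-dCas9-Activator line and for Atf5 from 3 to 24 h there (0.0401). Ddit4 before induction passed when replicate 1 was left out of all groups (1.44, edgeR adjusted p = 0.0402). The other values followed gene by gene already had a call in the main fit, so only this value could gain a call. Settings also added calls of members not followed in this way, since DESeq2 gave 8 members at 3 h where edgeR gave 7. The counts of members past the test between the lines, 1 before induction, 8 after it, 7 at 3, 6 and 12 h and 6 at 24 h, became 0, 2, 2, 3, 1 and 2 with the 2-fold limit. Of all genes, 0.214%, 8.48%, 12.8%, 13.9%, 15.2% and 7.46% passed with that limit. Before induction the count was 0 without the replicate block, without the filter or with mitochondrial scaling. Of all genes, 158 were then higher and 45 lower without the block, and 119 and 24 with that scaling. Without the filter it was 205 and 58 of 48106 genes. After induction the member count was 4 without the replicate block and 5 without the filter. All genes gave 8211 higher and 6477 lower without the block, and 9228 and 6844 without the filter. At 24 h the member count was 3 without the filter or with the 6 libraries of that time alone. All genes gave 12268 higher and 6929 lower without the filter, and 6172 and 3732 of 23651 with the 6 libraries. Leaving out libraries or replicate numbers gave 0 to 1, 3 to 8, 5 to 9, 5 to 10, 4 to 7 and 2 to 6 members in the same order. No shares over all genes are given here for fits with samples left out, so these ranges describe the members alone. In the MSR-dCas9-Activator line the 2-fold limit gave 3 for 8 on induction (8.43% of all genes), 0 for 2 from induction to 3 h (0.606%) and 1 for 4 from the uninduced state to 24 h (7.20%). The last 2 were 0 and 2 without the replicate block, and the change to 3 h was 0 with mitochondrial scaling. Without the block 453 of all genes rose and 386 fell to 3 h. From the uninduced state to 24 h, 9255 were higher and 6857 lower. Mitochondrial scaling gave 499 and 41 to 3 h. Left-out samples gave 8 to 8, 0 to 2 and 2 to 6 members in this line, and 8 to 9 from 3 to 24 h. In the MSR-dCas9-Control line DESeq2 gave 1 for 0 from induction to 3 h (133 of all genes higher and 53 lower). It also gave 1 for 0 from the uninduced state to 24 h (214 and 477), where library sizes without TMM gave 2 (167 and 71). The 2 calls of this line from 3 to 24 h became 0 without the replicate block (94 and 158 of all genes) or with mitochondrial scaling (7 and 11). They became 1 without the filter (148 and 255) or with the 2-fold limit (0.273% of all genes), with 0 to 2 over left-out samples. For the difference between the lines in a change, the 2-fold limit gave 3 for 6 on induction (7.69% of all genes), 3 for 7 from 3 to 24 h (7.96%), and from the uninduced state 3 for 6 at 3 h (12.2%), 4 for 7 at 6 h (13.3%), 2 for 4 at 12 h (14.4%) and 1 for 2 at 24 h (6.34%). Without the replicate block these were 2 on induction, 3 from 3 to 24 h, 4 at 6 h and 2 at 12 h. Of all genes, 3224 were then higher and 3678 lower on induction, and 3753 and 3481 from 3 to 24 h. At 6 h it was 5623 and 6963, and at 12 h 5864 and 6891. Left-out samples gave 1 to 6, 3 to 8, 3 to 7, 3 to 8, 1 to 5 and 2 to 2 members, the lowest being without replicate 3 in all but the last. Of 94 values of single genes followed, 39 lost their call without replicate 3, 27 without replicate 1, 11 without replicate 2 and 32 without the replicate block. Of the 5 genes most like Asns, and of those most like Ddit3, 1 was shared with the list by Spearman's rho. The causes were not tested.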
